A study of Danio rerio with 16 samples.

Results

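The genes described are those of the transforming growth factor beta (TGF-β) and bone morphogenetic protein (BMP) pathway in whole zebrafish embryos. They were chosen by name, as 57 gene symbols for ligands, receptors, Smad proteins, antagonists, and direct targets, and the rule used no measured value. In the table of gene counts, 56 of the symbols were found, on 57 of 32520 genes, because grem1a named 2 genes and ski named none. After the filter on low counts, 55 of the 57 genes remained among 23555 tested. They were 17 ligands, 1 protease that processes ligand antagonists, 13 receptors, 7 Smad mediators, 4 intracellular inhibitors, 7 extracellular antagonists, and 6 targets. Both grem1a genes failed the filter, one at no more than 0.0242 CPM (counts per 1000000 reads) and the other at 0 in every library.

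Ligands of this family are secreted as dimers, some of them in a latent form, and bind pairs of type I and type II serine/threonine kinase receptors. TGF-β and activin receptors phosphorylate Smad2 and Smad3, BMP receptors phosphorylate Smad1, Smad5, and Smad9, and both kinds of Smad enter the nucleus with Smad4. The response includes its own brakes, the inhibitory Smads, and secreted antagonists such as noggin, chordin, gremlin, and follistatin hold ligands away from receptors. In the zebrafish embryo, BMP signaling patterns the dorsoventral axis and later shapes the heart, vessels, fins, and nervous system. Fibrillins form extracellular microfibrils, which bind latent TGF-β complexes and BMP prodomains.

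The embryos were WT (fbn2b +/+ in the labels) or homozygous mutant (fbn2b -/- in the labels, fbn3-/- in the study) and were sampled at 1 or 2 days post fertilization (dpf). Each library was made from the total RNA of a pool of 10 whole embryos, so that no value belongs to 1 embryo or 1 tissue. At 1 dpf there were 4 libraries of WT and 3 of fbn3-/- embryos. At 2 dpf there were 3 libraries of WT and 5 of fbn3-/- embryos. The mutation came from genome editing with 1 guide RNA in exon 4 of fbn3, shown here because it defines the mutant groups. It gave 2 lines, Cmg96 with a deletion of 4 bp and Cmg97 with a deletion of 15 bp. The study introduces its fbn3-/- fish with the frameshift deletion of 4 bp, and the labels do not say which line was sequenced.
fbn3 guide: tgcgagagcggatgtcagaa

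The gene named fbn2b in the table (ENSDARG00000098237), the study's fbn3, was at 103, 166, 170.0, and 337 CPM in the WT libraries at 1 dpf and at 19.5, 23.4, and 28.7 CPM in the fbn3-/- libraries. At 2 dpf it was at 230.1, 164, and 239 CPM in WT and at 20.8, 18.8, 19.4, 18.4, and 15.1 CPM in fbn3-/-. Every mutant library therefore lay below every WT library. Total counts ran from 41473603 to 179887580 a library (median 73893435). In order of library number, the libraries were divided here into 2 sets, A (lower numbers) and B (higher numbers). The numbers run on without a gap from A to B and do not by themselves mark a batch. Deviations from the group means were correlated between libraries of different groups. They were shared more within a set (median r of 0.12 over such pairs) than between sets (median r of -0.11). All 3 fbn3-/- libraries at 1 dpf belonged to set A, as did 2 of the 4 WT libraries, so that at this stage set and genotype cannot be fully told apart. Results were therefore also computed within sets.

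The pathway was compared first between stages in each genotype, and then between genotypes at each stage. Levels are given as CPM, counts scaled between libraries with edgeR's TMM factors, and are compared between libraries and not between genes. A difference is a log2 fold change (log2FC) with its standard error (SE) from edgeR's quasi-likelihood fit, and it passed at a false discovery rate (FDR) under 0.05 over all 23555 genes. A gene that passed with an absolute log2FC above 1 was called differentially expressed. Within a library set, a log2FC is instead the difference between group means of log2 CPM, with a prior count of 2 added. It has no SE and no test. The labels name biological replicates without saying whether the pools came from separate crosses, so that FDR values measure the spread between these libraries.

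From 1 to 2 dpf most of the pathway changed, in both directions. In WT embryos, 21 of the 55 genes rose and 19 fell, against 27% of all genes tested that rose and 27.6% that fell. These shares are also the background for the counts by role below. The median size of the change was 0.52 on the log2 scale for these genes and 0.57 for all genes tested. Of the 55 genes, 10 were differentially expressed and higher at 2 dpf, against 17.7% of all genes tested. Differentially expressed and lower were 3 of the 55, against 9.4% of all genes tested. The libraries of the 2 stages did not overlap for 20 of the 55 genes that were higher at 2 dpf and 18 that were lower. Over all genes tested, 25.7% and 24% had no overlap in these directions, the background for the separate stages named below. All 40 changes kept their direction in the libraries of set A alone, with 1 WT library at 2 dpf, and in those of set B alone. The genes were picked because they passed in these same libraries, so this is not independent support. In whole embryos, a change in the number of cells that express a gene cannot be told apart from a change in RNA per cell. Markers of cell types moved with stage as well. All 5 neuron markers rose, their summed level going from between 460 and 568 CPM to between 1201 and 1512 CPM in WT, and the summed cartilage markers went from between 35.9 and 65.4 CPM to between 132 and 178 CPM. Of 4 notochord markers, 3 fell. Of the other marker lists, 1 of 6 endothelial genes rose and 1 fell, and 2 of 5 erythroid genes rose and 1 fell. Of 4 heart muscle genes 1 rose and 3 fell, of 5 skeletal muscle genes 1 rose and 2 fell, and of 5 epidermis genes 3 fell. In the neutrophil list 3 of 5 genes rose (mpx, lyz, and an mmp13a gene). The part of cell makeup in the changes described next was not tested.

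**Figure D1:**
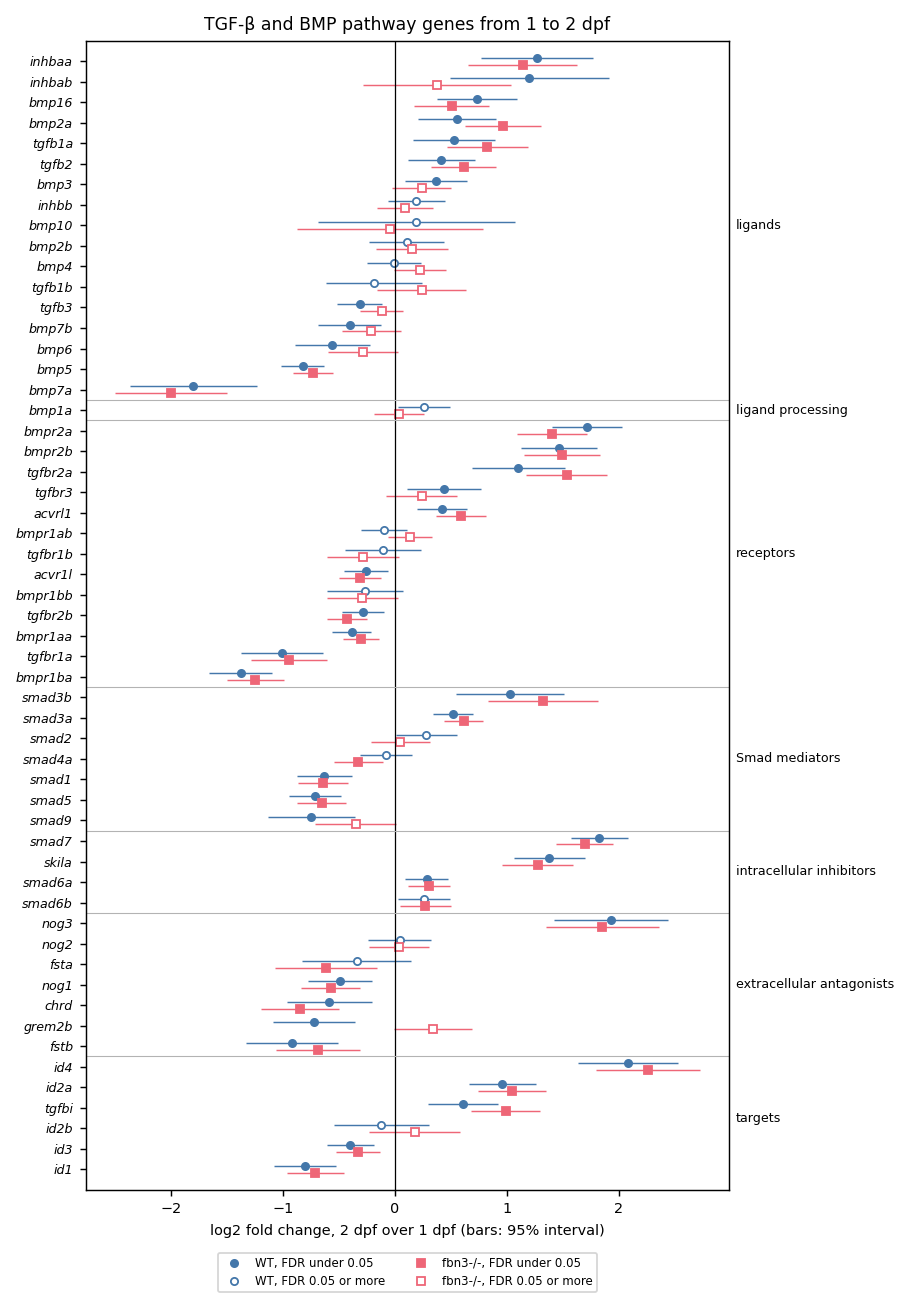
Change of the 55 tested TGF-β and BMP genes from 1 to 2 dpf, as log2FC with its 95% interval on the horizontal axis, in WT (circles, 4 against 3 libraries) and fbn3-/- (squares, 3 against 5 libraries), filled where FDR is under 0.05. The intracellular inhibitors lie right of 0, the BMP Smads (smad1, smad5, and smad9) left of it, and the 2 genotypes lie close together for most genes.

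The intracellular inhibitors moved one way. In WT, 3 of the 4 rose (smad7, skila, and smad6a), and smad6b, at 23.6, 22.8, 24.3, and 29.9 CPM at 1 dpf and at 27.7, 28.2, and 34.3 CPM at 2 dpf, missed the threshold with a log2FC of 0.26 (SE 0.11, FDR 0.0575). The inhibitory Smad of both branches, smad7, was at 12.1, 10.9, 10.4, and 11.3 CPM in the WT libraries at 1 dpf and at 35.3, 37.7, and 46 CPM at 2 dpf, a log2FC of 1.83 (SE 0.12, FDR 1.71e-08). The stages did not overlap, and smad7 had the lowest FDR of all 55 genes. The corepressor gene skila, related to mammalian SKIL, which binds Smads and blocks transcription, was at 5.73, 6.62, 7.10, and 8.83 CPM and then at 16.6, 19.5, and 18.9 CPM, a log2FC of 1.38 (SE 0.15, FDR 1.88e-06). The inhibitor of BMP receptor signaling smad6a rose least, from 33.4, 28.4, 33.3, and 34.9 CPM to 39.3, 37.3, and 42.1 CPM, a log2FC of 0.28 (SE 0.09, FDR 0.0153).

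Among the 7 extracellular antagonists tested, 1 rose and 4 fell in WT. The noggin gene nog3, whose product binds BMPs in cartilage and elsewhere, was at 2.23, 2.38, 2.44, and 0.920 CPM at 1 dpf and at 6.62, 9.15, and 7.71 CPM at 2 dpf, a log2FC of 1.93 (SE 0.24, FDR 7.45e-06). The lowest library at 2 dpf was above the highest at 1 dpf. Of the other noggin genes, nog1 fell with a log2FC of -0.49 (SE 0.13, FDR 0.00592) and nog2 had a log2FC of 0.04 (SE 0.13, FDR 0.806). Chordin (chrd), the BMP antagonist of the dorsal organizer, fell with a log2FC of -0.58 (SE 0.18, FDR 0.0112). The follistatin gene fstb, whose product binds activins, fell with a log2FC of -0.92 (SE 0.19, FDR 8.39e-04), while fsta had a log2FC of -0.34 (SE 0.23, FDR 0.226). The gremlin gene grem2b, a BMP antagonist, fell with a log2FC of -0.72 (SE 0.17, FDR 0.00236), and its values are given with the genotypes.

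Of the 17 ligands, 7 rose and 5 fell in WT. The activin beta A genes rose together. For inhbaa the levels were 1.55, 1.07, 1.44, and 1.38 CPM at 1 dpf and 2.27, 3.98, and 3.46 CPM at 2 dpf, a log2FC of 1.27 (SE 0.24, FDR 3.02e-04). For inhbab, a gene of low counts, they were 0.328, 0.178, 0.222, and 0.387 CPM and 0.415, 0.707, and 0.656 CPM, a log2FC of 1.20 (SE 0.33, FDR 0.00658). The stages did not overlap for either gene, whereas inhbb had a log2FC of 0.19 (SE 0.12, FDR 0.190).

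The largest fall of a ligand was that of bmp7a, which is needed for ventral fates in the early zebrafish embryo. It was at 2.93, 3.56, 3.13, and 5.08 CPM at 1 dpf and at 0.760, 0.883, and 1.40 CPM at 2 dpf, a log2FC of -1.80 (SE 0.27, FDR 3.94e-05). The highest library at 2 dpf stayed below the lowest at 1 dpf. The related bmp5, bmp6, and bmp7b fell less, with log2FC values of -0.82, -0.56, and -0.40. The genes bmp2a and bmp16 rose, with log2FC values of 0.56 and 0.74, and bmp2a went from 5.22, 4.53, 3.79, and 5.11 CPM to 8.04, 5.47, and 6.92 CPM. The early patterning ligands bmp2b and bmp4 had log2FC values of 0.11 and -0.01 and did not pass, and neither did bmp10, a heart ligand of low counts (log2FC of 0.19). The gene bmp3, whose mammalian counterpart opposes other BMPs, rose by a log2FC of 0.37 (SE 0.13, FDR 0.0262).

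The TGF-β ligands themselves split. The levels of tgfb1a were 10.5, 12, 13.1, and 15.7 CPM at 1 dpf and 14.9, 19, and 21.4 CPM at 2 dpf, a log2FC of 0.53 (SE 0.17, FDR 0.0167), and the ranges overlapped. The levels of tgfb2 were 5.86, 8.18, 5.90, and 6.10 CPM and 9.48, 8.61, and 8.09 CPM, a log2FC of 0.41 (SE 0.14, FDR 0.0203), with 1 high library at 1 dpf that reached into the later range. In the other direction, tgfb3 went from 49.97, 39.8, 43.9, and 39.7 CPM to 34.5, 35.6, and 34.6 CPM, a log2FC of -0.31 (SE 0.10, FDR 0.0115). The gene tgfb1b had a log2FC of -0.19 (SE 0.20, FDR 0.453). The protease gene bmp1a, of the tolloid family whose members cleave chordin and procollagens, had a log2FC of 0.26 (SE 0.11, FDR 0.0526), just outside the threshold.

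Of the 13 receptors, 5 rose and 5 fell in WT. The largest rises among them were those of type II receptor genes, although another gene of that type, tgfbr2b, fell. The BMP type II receptor gene bmpr2a was at 14.1, 13.7, 14, and 14.3 CPM at 1 dpf and at 38, 51.4, and 48.8 CPM at 2 dpf, a log2FC of 1.72 (SE 0.15, FDR 2.03e-07). Its duplicate bmpr2b was at 7.08, 8.44, 7.96, and 8.18 CPM and then at 19.99, 22.6, and 23.3 CPM, a log2FC of 1.47 (SE 0.16, FDR 2.02e-06). In both genes the WT libraries at 1 dpf lay close together and far below those at 2 dpf. The TGF-β type II receptor gene tgfbr2a was at 0.787, 0.766, 0.679, and 0.895 CPM and then at 1.59, 1.59, and 1.77 CPM, a log2FC of 1.1 (SE 0.20, FDR 2.05e-04). The endothelial type I receptor gene acvrl1 and the coreceptor gene tgfbr3 (betaglycan) rose less, by log2FC values of 0.42 and 0.44.

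Other receptor genes fell or did not pass. The BMP type I receptor gene bmpr1ba fell from 36.2, 41.7, 41.5, and 30.6 CPM to 16.5, 13, and 13.9 CPM, a log2FC of -1.37 (SE 0.13, FDR 6.59e-07). The TGF-β type I receptor gene tgfbr1a fell from 4.96, 5.74, 6.47, and 6.07 CPM to 3.21, 2.400, and 3.07 CPM, a log2FC of -1.01 (SE 0.17, FDR 1.52e-04). For both, the stages were fully separate. Smaller falls were found for bmpr1aa (log2FC of -0.38), tgfbr2b (log2FC of -0.28), and acvr1l (log2FC of -0.25), the BMP type I receptor gene also known as alk8. The duplicates bmpr1ab, bmpr1bb, and tgfbr1b had log2FC values of -0.10, -0.26, and -0.11 and did not pass.

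The Smad mediators divided by branch. All 3 Smads of the BMP branch fell in WT, smad1 with a log2FC of -0.63 (SE 0.11, FDR 2.56e-04), smad5 with -0.71 (SE 0.11, FDR 5.59e-05), and smad9 with -0.74 (SE 0.18, FDR 0.00287). Of the Smads of the TGF-β and activin branch, both smad3 genes rose. The gene smad3b was at 16.5, 14.7, 17, and 10.5 CPM at 1 dpf and at 36, 26.1, and 28.3 CPM at 2 dpf, a log2FC of 1.03 (SE 0.23, FDR 0.00130), and smad3a had a log2FC of 0.52 (SE 0.08, FDR 8.96e-05). The remaining pair did not pass, with log2FC values of 0.28 for smad2 and -0.07 for smad4a, the partner of both branches.

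The direct targets also divided. The Id genes encode inhibitors of basic helix-loop-helix factors and respond to BMP in many tissues. The gene id1 fell from 113, 90.7, 119, and 97.7 CPM to 54.2, 64.2, and 62.4 CPM in WT, a log2FC of -0.80 (SE 0.13, FDR 8.99e-05). The gene id3 fell from 86.3, 72.9, 72.3, and 85.5 CPM to 58, 57, and 65.6 CPM, a log2FC of -0.40 (SE 0.10, FDR 0.00333). The stages were separate for both genes. In contrast, id4 rose from 10.7, 8.70, 7.17, and 6.34 CPM to 32.7, 34.2, and 37.7 CPM, the largest rise among the 55 genes with a log2FC of 2.08 (SE 0.21, FDR 9.27e-07). The gene id2a rose from 57.6, 56.6, 56.5, and 59.3 CPM to 92.3, 130.1, and 113 CPM, a log2FC of 0.96 (SE 0.14, FDR 3.82e-05), while id2b had a log2FC of -0.12. The matrix gene tgfbi, named for its induction by TGF-β in human cells, rose from 363, 277, 271, and 224 CPM to 453, 408, and 437 CPM, a log2FC of 0.61 (SE 0.15, FDR 0.00244).

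**Figure D2:**
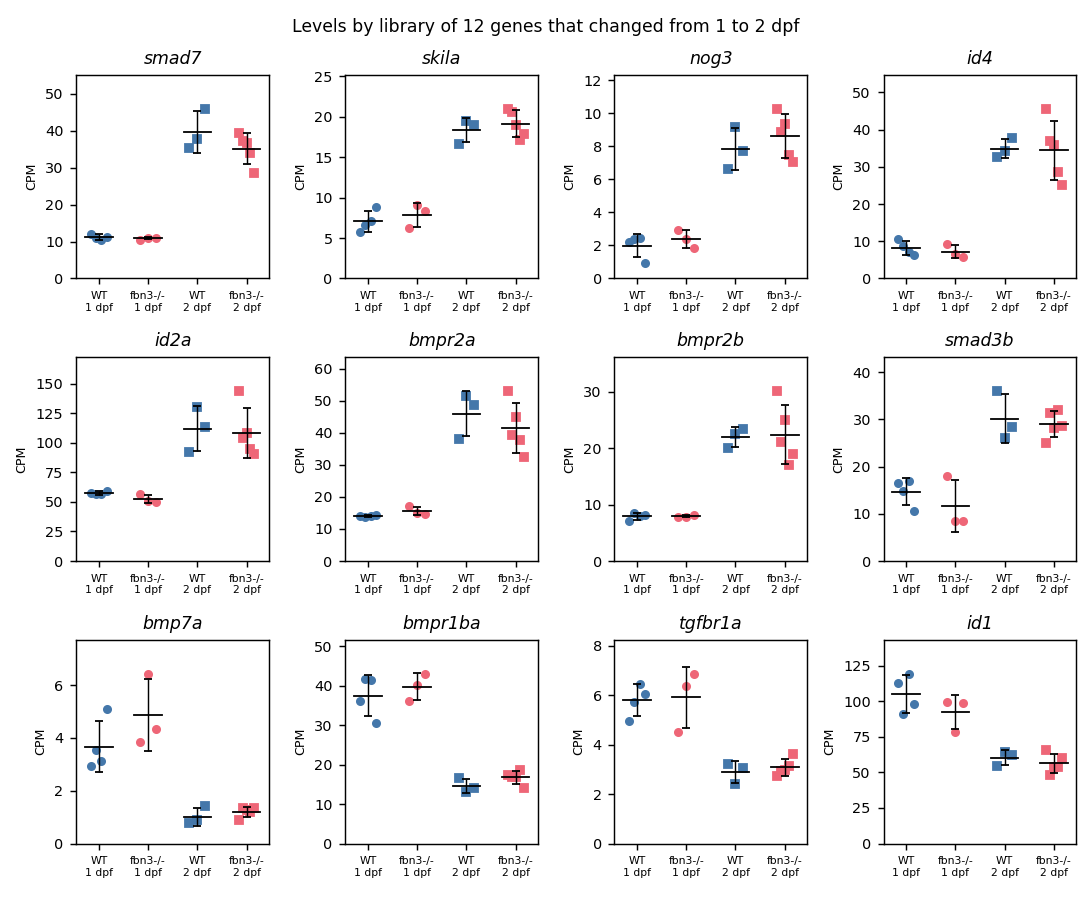
CPM in each library (vertical axes, each from 0) of 12 genes that changed with stage in WT, with WT in blue and fbn3-/- in red, 1 dpf as circles and 2 dpf as squares, and bars for the mean and SD of the group. Within WT the stages do not overlap in any of the 12 panels, with higher levels at 2 dpf in the first 8 and lower levels in bmp7a, bmpr1ba, tgfbr1a, and id1. The 12 genes were picked because they changed, and 49.7% of all genes tested had no overlap between these stages in WT.

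Duplicated genes were compared as pairs. Among the 55 genes were 13 pairs of a and b duplicates. In WT, both members changed in the same direction in 4 pairs (bmp7a and bmp7b, inhbaa and inhbab, bmpr2a and bmpr2b, and smad3a and smad3b). In 8 pairs only 1 of them passed, which does not show that the members differ. In 1 pair, tgfbr2a and tgfbr2b, they moved apart, with log2FC values of 1.1 and -0.28. The same counts were not made for unrelated pairs of genes, so that nothing particular to duplicates is shown.

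In fbn3-/- embryos the same comparison gave 19 genes that rose and 16 that fell, against 29.2% and 27% of all genes. Of the 55 genes, 10 were differentially expressed and higher at 2 dpf, against 19.3% of all genes tested. Differentially expressed and lower were 2 of the 55, against 8.36% of all genes tested. The stages did not overlap for 19 genes that were higher and 17 that were lower at 2 dpf, against 29% and 27.3% of all genes tested. Of the rises, 18 were found in both genotypes, 85.7% of those in WT and 94.7% of those in fbn3-/-. Of the falls, 14 were found in both, 73.7% of those in WT and 87.5% of those in fbn3-/-. Over all genes tested, the shared rises were 87.9% of those in WT and 81.2% of those in fbn3-/-, and the shared falls 80.1% and 81.7%. No gene of the pathway passed in opposite directions in the 2 genotypes, and only 4 of all genes tested did. All 35 changes kept their direction in set A, to which every fbn3-/- library at 1 dpf belonged. The same libraries gave the calls, so this is not independent support.

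Among the genes with the largest changes in WT, smad7 was at 10.5, 11.1, and 10.9 CPM in the fbn3-/- libraries at 1 dpf and at 39.3, 37.1, 36.8, 33.9, and 28.6 CPM at 2 dpf, a log2FC of 1.70 (SE 0.12, FDR 3.58e-08). The gene id4 was at 9.23, 6.57, and 5.79 CPM and then at 45.7, 36.8, 35.9, 28.7, and 25.2 CPM, a log2FC of 2.26 (SE 0.22, FDR 5.76e-07). In the other direction, bmp7a was at 3.84, 6.44, and 4.33 CPM and then at 0.888, 1.34, 1.26, 1.20, and 1.33 CPM, a log2FC of -2.0 (SE 0.23, FDR 3.68e-06). In each of these genes the stages did not overlap in the mutants either. All 4 intracellular inhibitors rose in fbn3-/-, smad6b with a log2FC of 0.27 (SE 0.11, FDR 0.0400). The 3 BMP Smads had log2FC values of -0.64 (smad1), -0.65 (smad5), and -0.35 (smad9), of which the last did not pass (FDR 0.0934).

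For 6 other genes differentially expressed in WT, the values in the mutants were as follows. The BMP type II receptor gene bmpr2a went from 17.2, 14.9, and 14.8 CPM to 53.1, 39.4, 44.9, 37.7, and 32.4 CPM, a log2FC of 1.41 (SE 0.15, FDR 1.17e-06), and bmpr2b from 7.86, 7.77, and 8.15 CPM to 30.1, 21.1, 24.9, 16.9, and 18.9 CPM, a log2FC of 1.49 (SE 0.16, FDR 1.61e-06). The gene nog3 went from 2.93, 2.400, and 1.86 CPM to 10.3, 8.89, 9.39, 7.50, and 7.04 CPM, a log2FC of 1.85 (SE 0.24, FDR 8.74e-06), and skila from 6.19, 9.07, and 8.36 CPM to 21, 20.5, 19, 17.2, and 17.9 CPM, a log2FC of 1.28 (SE 0.15, FDR 3.31e-06). In the mutants the stages did not overlap for any of these 4 genes. In the other direction, bmpr1ba went from 36.2, 40.1, and 43.1 CPM to 17.4, 16.8, 16.8, 18.6, and 14.1 CPM, a log2FC of -1.25 (SE 0.12, FDR 5.52e-07), and tgfbr1a from 4.53, 6.36, and 6.88 CPM to 2.72, 2.96, 2.97, 3.13, and 3.64 CPM, a log2FC of -0.94 (SE 0.16, FDR 1.19e-04).

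Among the mediators, ligands, and targets, smad3b went from 18, 8.44, and 8.48 CPM to 24.9, 31.3, 28.1, 32, and 28.6 CPM in fbn3-/-, a log2FC of 1.32 (SE 0.23, FDR 1.66e-04), with 1 mutant library at 1 dpf above the others. The activin gene inhbaa went from 1.62, 0.933, and 1.61 CPM to 3.11, 2.49, 3.25, 3.01, and 3.66 CPM, a log2FC of 1.14 (SE 0.23, FDR 5.50e-04), and id2a from 56.4, 50.8, and 49.9 CPM to 144, 104, 108, 94.7, and 90.2 CPM, a log2FC of 1.05 (SE 0.14, FDR 1.46e-05). The stages were separate in each of these genes, as they were for id3, which went from 72.6, 70.2, and 73.4 CPM to 59.6, 50.7, 53.7, 59.97, and 62.7 CPM, a log2FC of -0.33 (SE 0.09, FDR 0.00717). The other activin beta A gene, inhbab, was at 0.342, 0.290, and 0.399 CPM and then at 0.479, 0.663, 0.397, 0.452, and 0.296 CPM, overlapping ranges, and its log2FC of 0.38 (SE 0.31, FDR 0.317) did not pass.

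Genes that passed in WT alone were bmp3, tgfbr3, and inhbab among the rises, and tgfb3, grem2b, bmp7b, smad9, and bmp6 among the falls. Genes that passed in fbn3-/- alone were smad6b among the rises, and fsta and smad4a among the falls. A gene that passed in 1 genotype and not in the other is not thereby shown to differ, and the test of that difference, the interaction of genotype and stage, is given with the genotypes.

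Genes of the pathway outside the 57 symbols, a list of further ligands, receptors, and modulators, also changed with stage. Of 51 tested, 15 rose and 18 fell in WT, and 16 rose and 16 fell in fbn3-/-. The shares over all genes were 27% and 27.6% in WT, and 29.2% and 27% in fbn3-/-. Over the 51 genes, log2FC values in WT ran from -5.88 to 6.65, and those of this list named next are examples and not the extremes. The nodal antagonist gene lft2 fell in WT with a log2FC of -5.35. The ligand gene gdf11, a relative of myostatin, rose by a log2FC of 1.13, the activin type I receptor gene acvr1ba by 1.41, and the corepressor gene skilb, the duplicate of skila, by 1.83. Of 18 further response genes, 4 rose and 8 fell in WT, and 6 rose and 7 fell in fbn3-/-. The same shares over all genes apply. The early BMP targets vox and vent fell in WT with log2FC values of -2.98 and -3.87. The gene pmepa1, a TGF-β target in mammals that restrains Smad signaling, rose by a log2FC of 2.84.

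The second question was whether loss of fbn3 changed the pathway. At 1 dpf, 0 of the 55 genes passed edgeR's test between fbn3-/- and WT, where 1 of all genes tested did (0.00425%), fbn2b itself. Without fbn3-/- replicate 1 at 1 dpf, the count over all genes was 76, and that of the 55 genes stayed at 0. By DESeq2 the count of the 55 genes was also 0, where that over all genes was 68. At an unadjusted p under 0.05, bmp16, bmp1a, and tgfbr2a were higher and grem2b was lower, against a background of 7.34% of all genes. The mutant libraries lay entirely above WT for tgfbr2a and bmpr2a and entirely below WT for grem2b and id2a, against 5.88% of all genes without overlap. The median log2FC of the 55 genes was 0.02, and that of all genes was -0.03.

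At 2 dpf, 1 of the 55 genes passed, tgfbr2a, where 55 of all genes tested did (0.233%). Its log2FC of 0.95 was not above 1, so that 0 of the 55 genes were differentially expressed. Over all genes tested, 32 were differentially expressed and higher, and 10 lower. The count of all genes that passed, 55, rested on single libraries at 2 dpf. It was 455 without WT replicate 1, 21 without WT replicate 2, and 13 without WT replicate 3, and it was 26, 25, and 36 without fbn3-/- replicates 2, 4, and 5. At an unadjusted p under 0.05, tgfbr2a, grem2b, bmp6, tgfb1b, and fstb were higher and smad2 and smad4a were lower, against a background of 10.4% of all genes. The mutant libraries lay entirely above WT for 9 genes (tgfb1b, tgfb3, bmp6, tgfbr2a, bmpr1ab, smad1, smad9, fstb, and grem2b) and entirely below WT for smad2 and smad4a, against 6.19% of all genes without overlap. The median log2FC was 0.05, and that of all genes was 0.01. No marker list of another cell type was at 0 in any group. In the neutrophil list, of mpx, lyz, il6r, and 2 mmp13a genes, 1 of 5 genes was higher at 2 dpf, an mmp13a gene (log2FC of 2.57, FDR 0.00314). The other mmp13a gene had a log2FC of 1.20, il6r one of 0.13, and the granulocyte genes lyz and mpx ones of -0.62 and -0.08, none of which passed. The summed level of the list ran from 41.4 to 76.0 CPM in WT and from 53.3 to 85.9 CPM in fbn3-/-. This sum includes both mmp13a genes and is not a measure of neutrophil number. No gene of the 8 other marker lists passed between genotypes. The part of cell makeup in the differences was not tested.

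**Figure D3:**
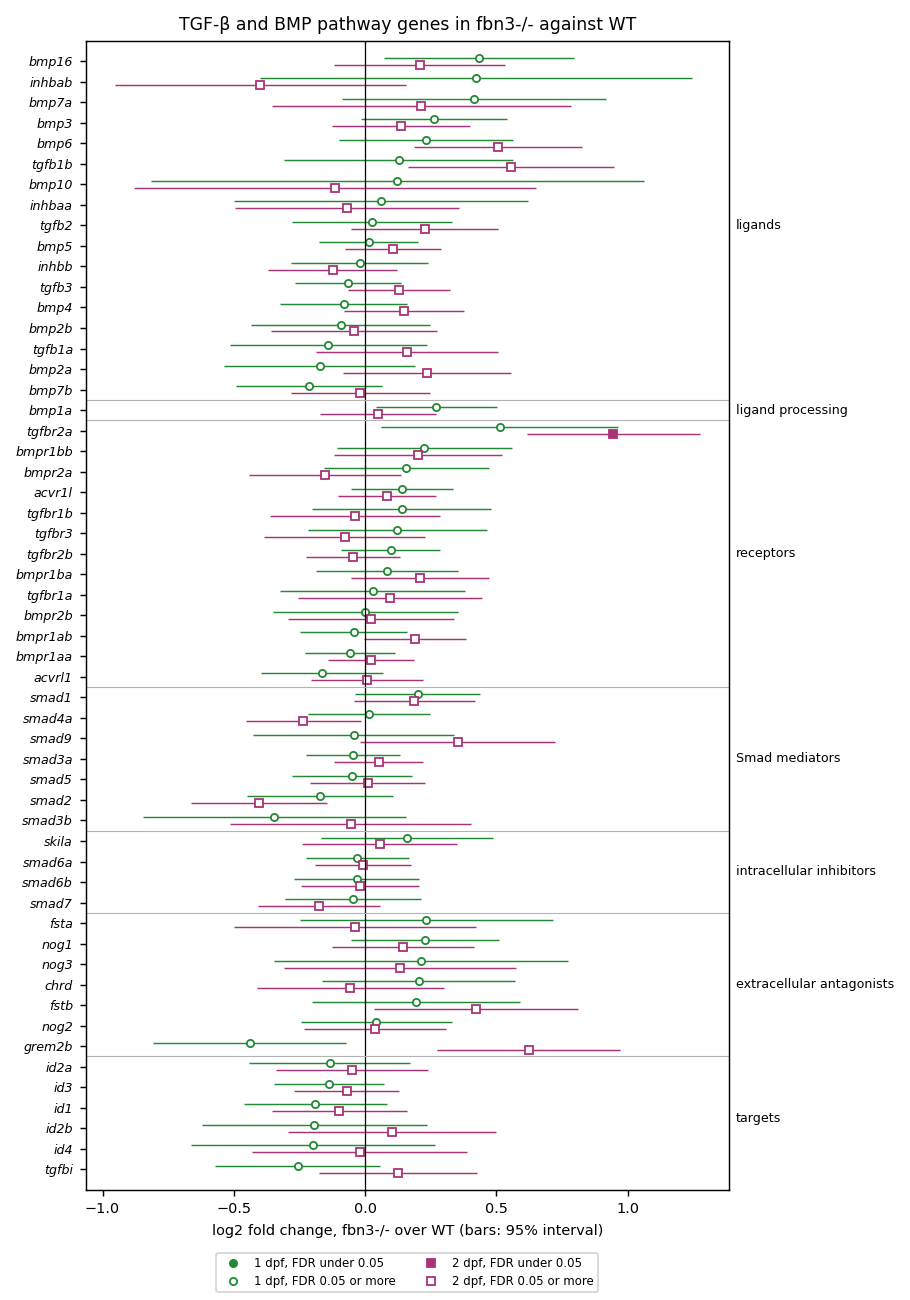
Difference between fbn3-/- and WT of the 55 tested TGF-β and BMP genes, as log2FC with its 95% interval on the horizontal axis, at 1 dpf (circles, 3 against 4 libraries) and 2 dpf (squares, 5 against 3 libraries), filled where FDR is under 0.05. The single filled marker is tgfbr2a at 2 dpf, with a log2FC of 0.95, and grem2b lies left of 0 at 1 dpf and right of it at 2 dpf.

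The type II receptor for TGF-β, encoded by tgfbr2a and tgfbr2b, binds ligand first and then recruits and phosphorylates the type I receptor. At 2 dpf tgfbr2a (ENSDARG00000059363) was at 1.59, 1.59, and 1.77 CPM in the WT libraries and at 2.54, 3.38, 2.82, 3.44, and 3.66 CPM in the fbn3-/- libraries. Every mutant library was above every WT library, and the log2FC was 0.95 (SE 0.16, FDR 0.0194) with edgeR, its 95% interval from 0.62 to 1.28. At 1 dpf it was at 0.787, 0.766, 0.679, and 0.895 CPM in WT and at 1.15, 0.994, and 1.15 CPM in fbn3-/-, again without overlap, and the log2FC of 0.51 (SE 0.21, FDR 0.656) did not pass. The difference between the stages in this effect was 0.43 on the log2 scale (SE 0.26, FDR 0.892), and it did not pass. The log2FC at 2 dpf was 0.85 within set A, which held 1 WT library, and 1.07 within set B. The counts behind these levels were low for the depth, from 36 to 631 a library. The call was lost without fbn3-/- replicate 2 (FDR 0.0579) or 4 (FDR 0.0606), and without WT replicate 2 (FDR 0.107) or 3 (FDR 0.108), all at 2 dpf. It was also lost with only the 2 groups compared (log2FC of 0.93, FDR 0.106) and with a replicate block (log2FC of 0.85, FDR 0.0648). The duplicate tgfbr2b, in the same libraries, was at 25.4, 28.5, and 29 CPM in WT and at 27.2, 27.3, 27.2, 26, and 26.3 CPM in fbn3-/- at 2 dpf, a log2FC of -0.04 (SE 0.08, FDR 0.884) with an interval from -0.22 to 0.13. The type I receptor genes tgfbr1a and tgfbr1b had log2FC values of 0.10 and -0.04 at 2 dpf, with intervals from -0.26 to 0.45 and from -0.36 to 0.29.

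The antagonist gene grem2b (ENSDARG00000103092) had the lowest unadjusted p of all members in the test of the difference between stages. It was at 8.11, 7.99, 10.01, and 8.13 CPM in WT and at 7.84, 5.49, and 5.68 CPM in fbn3-/- at 1 dpf. At 2 dpf it was at 6.09, 4.27, and 5.28 CPM in WT and at 6.53, 8.74, 7.0, 8.82, and 8.91 CPM in fbn3-/-. The mutant libraries were thus all below WT at 1 dpf and all above it at 2 dpf, with log2FC values of -0.44 (SE 0.17, FDR 0.651) and 0.62 (SE 0.16, FDR 0.167), neither of which passed. WT fell from 1 to 2 dpf, whereas in fbn3-/- the log2FC between stages was 0.34 (SE 0.16, FDR 0.0858). The interaction was 1.06 (SE 0.24, unadjusted p = 4.16e-04) and did not pass with edgeR's FDR of 0.545. Over the 55 genes, 0 interactions passed (background 0.00425%), and grem2b was the 1 gene at an unadjusted p under 0.05 (background 5.51%). DESeq2 called 1, grem2b, with an FDR of 0.0214, where it called 37 over all genes. Within set A, the log2FC was -0.36 at 1 dpf and 0.27 at 2 dpf, and within set B it was 0.90 at 2 dpf.

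The remaining differences at 2 dpf did not pass. The ligand gene bmp6, which acts in iron regulation and vessels in mammals, was at 5.90, 4.92, and 5.75 CPM in WT and at 7.06, 8.70, 8.13, 6.75, and 8.65 CPM in fbn3-/-, a log2FC of 0.51 (SE 0.15, FDR 0.234). The ligand gene tgfb1b was at 1.54, 2.11, and 1.86 CPM in WT and at 2.88, 2.55, 2.47, 2.96, and 2.65 CPM in fbn3-/-, a log2FC of 0.56 (SE 0.18, FDR 0.295). For both ligands all mutant libraries were above all WT libraries. Within sets A and B, the log2FC was 0.43 and 0.52 for bmp6, and 0.76 and 0.49 for tgfb1b, whose counts ran from 91 to 543 a library. The receptor Smad gene smad2 was at 47.4, 53.6, and 68.7 CPM in WT and at 43.5, 46.2, 43.2, 40.8, and 40.2 CPM in fbn3-/-, a log2FC of -0.40 (SE 0.12, FDR 0.244), and the log2FC was -0.10 within set A and -0.58 within set B. The receptor gene bmpr1ab was at 39.2, 38.6, and 41.5 CPM in WT and at 43.3, 45.9, 48.3, 42.4, and 47.2 CPM in fbn3-/-, separate but close ranges, a log2FC of 0.19 (SE 0.09, FDR 0.493). The genes fstb and smad4a, named after their values were seen, had log2FC values of 0.42 (SE 0.18, FDR 0.439) and -0.23 (SE 0.10, FDR 0.451). Among the genes above the unadjusted threshold, log2FC values at 2 dpf ran from -0.40 (inhbab) to 0.35 (smad9).

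At 1 dpf the ligand gene bmp16 was at 5.55, 3.88, 3.14, and 4.65 CPM in WT and at 5.46, 5.61, and 6.12 CPM in fbn3-/-, a log2FC of 0.43 (SE 0.17, FDR 0.651). The protease gene bmp1a was at 54.9, 56.5, 52.5, and 68.9 CPM in WT and at 66.8, 75.8, and 68 CPM in fbn3-/-, a log2FC of 0.27 (SE 0.11, FDR 0.654). In both genes 1 WT library reached into the range of the mutants, and neither difference passed. Within set A the log2FC was 0.30 for bmp16, 0.33 for bmp1a, and 0.48 for tgfbr2a. The next lowest p was that of bmp3, at 10.2, 10.2, 10.2, and 11.9 CPM in WT and at 10.5, 11.9, and 15.6 CPM in fbn3-/-, with a log2FC of 0.26 (SE 0.13, FDR 0.684). Among the genes above the unadjusted threshold, log2FC values at 1 dpf ran from -0.35 (smad3b) to 0.42 (inhbab).

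**Figure D4:**
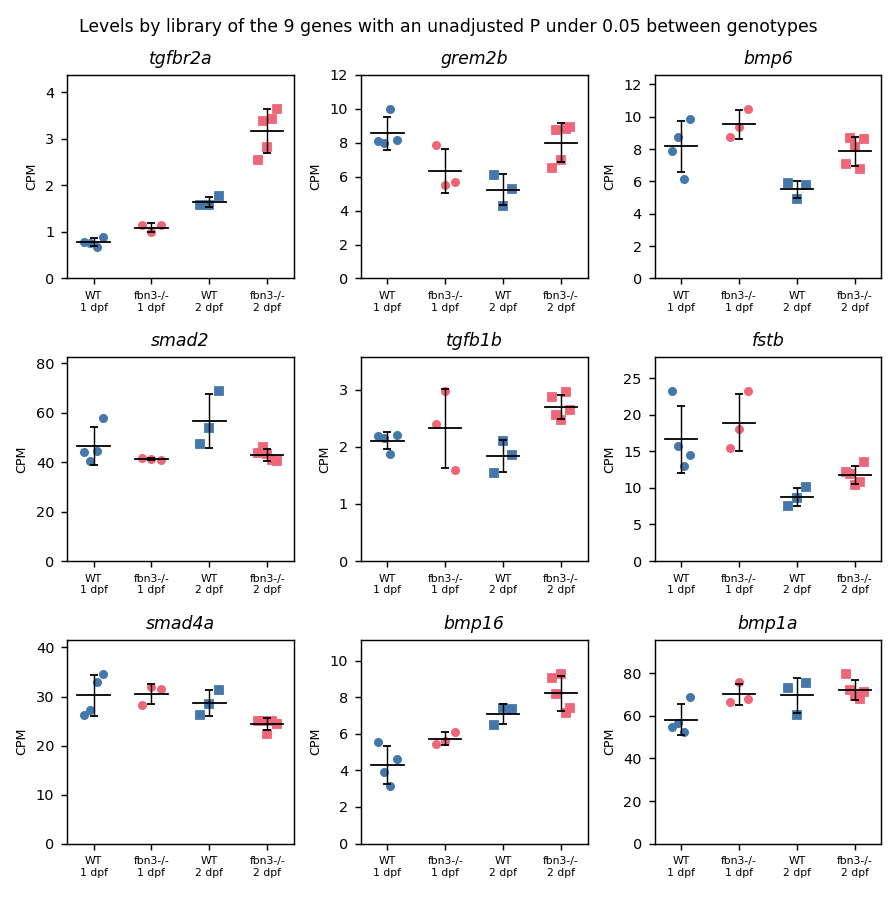
CPM in each library (vertical axes, each from 0) of the 9 genes with an unadjusted p under 0.05 between genotypes at 1 or 2 dpf, with WT in blue and fbn3-/- in red, 1 dpf as circles and 2 dpf as squares, and bars for the mean and SD of the group. The groups at 2 dpf are furthest apart for tgfbr2a, with 1.59 to 1.77 CPM in WT and 2.54 to 3.66 CPM in fbn3-/-.

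The RNA levels of the targets and feedback genes showed no difference that passed between genotypes. The activity of the pathway itself was not measured. All 6 targets had a negative log2FC at 1 dpf, as did 12969 of the 23555 genes tested, with medians of -0.19 and -0.03. At 2 dpf 4 of the targets were negative and 2 positive. All 6 interactions of the targets were positive (median 0.13, against 0.05 over all genes), and none passed. For id1 the fbn3-/- libraries were at 99.4, 78.4, and 98.8 CPM at 1 dpf and at 65.8, 48.5, 53.9, 53.7, and 60.0 CPM at 2 dpf, and they overlapped with the WT libraries at both stages. The log2FC between genotypes was -0.19 at 1 dpf, with an interval from -0.46 to 0.08, and -0.10 at 2 dpf, with an interval from -0.36 to 0.16. At 2 dpf the log2FC of id3 was -0.07, with an interval from -0.27 to 0.13, and that of smad7 was -0.18, with an interval from -0.41 to 0.06. The inhibitory Smad genes smad6a and smad6b had log2FC values of -0.01 and -0.02, with intervals from -0.19 to 0.18 and from -0.24 to 0.21. The 95% intervals mark differences that these values leave possible, so that no absence of a difference is shown. For tgfbi, the fbn3-/- libraries were at 284, 230.1, and 199 CPM at 1 dpf and at 464, 448, 468, 538, and 443 CPM at 2 dpf, and the log2FC was -0.26, with an interval from -0.57 to 0.06, and then 0.13, with an interval from -0.17 to 0.43.

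The same held for the 3 further TGF-β ligand genes. At 2 dpf the fbn3-/- libraries were at 15, 21.2, 19.97, 22.5, and 24.4 CPM for tgfb1a, a log2FC of 0.16 with an interval from -0.19 to 0.51. They were at 10.2, 10.7, 11.1, 10.4, and 8.63 CPM for tgfb2, a log2FC of 0.23 with an interval from -0.05 to 0.51. They were at 39.7, 36.4, 38.3, 39.3, and 37.2 CPM for tgfb3, just above the WT libraries, and the log2FC was 0.13 with an interval from -0.06 to 0.32. None of the 3 differences passed.

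In the wider pathway, 0 of the 51 further genes and 0 of the 18 further response genes passed edgeR's test between genotypes at either stage or for the interaction. At an unadjusted p under 0.05, 2 of the 51 were higher and 2 lower at 1 dpf, 2 were higher and 2 lower at 2 dpf, and 2 had a negative interaction. The shares over all genes at this threshold were 7.34% at 1 dpf, 10.4% at 2 dpf, and 5.51% for the interaction. Of the 18 response genes, 2 were higher at 1 dpf, 1 was higher (msx2b) and 1 lower (gata2a) at 2 dpf, and 2 had a negative interaction. Among the further antagonists, grem2a, the duplicate of grem2b, had a log2FC of 0.77 (SE 0.26, FDR 0.299) at 2 dpf and did not pass. Values of the 51 genes at 2 dpf ran from -1.12 to 0.77, so that grem2a lay at the upper end of the list. The gene ltbp1, whose product tethers latent TGF-β to the matrix, had a log2FC of 0.01 at 2 dpf, with an interval from -0.27 to 0.29.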

How the data were processed

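Stranded total RNA libraries of pools of 10 whole embryos were sequenced, and per the submitters' processing notes the authors used FastQC 0.11.9, Trim Galore 0.6.6, STAR 2.7.6a with GRCz11, and featureCounts of Subread 2.0.0. The authors deposited integer read counts per gene without normalization, and the strand setting of the counting is not given in the sources used here. Of 23 count columns, 15 matched a listed sample by library name and 8 were not used. Of 16 listed samples, 1 had no column of its name (the third WT replicate at 1 dpf) and was not analysed here.

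The tools were DESeq2 1.42.0, limma 3.58.1, and edgeR 4.0.16 under R 4.3.3. Genes were kept with filterByExpr (minimum count 10, minimum total 15), and libraries were scaled with TMM. One quasi-likelihood fit of the 4 groups gave the genotype, stage, and interaction contrasts, with Benjamini-Hochberg adjustment over the 23555 genes tested. The fit was also run on simulated counts. The genes changed there had higher levels and larger changes than tgfbr2a, so that the run does not bear on its call. The study states edgeR, this adjustment, and the thresholds. By these thresholds, 0 genes were higher and 1 lower here at 1 dpf, and 32 were higher and 10 lower at 2 dpf. The study reports more differentially expressed genes at both stages, and the reason was not tested.

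Values by library are given for genes differentially expressed in any contrast (at most 20 a stage contrast), those that passed and the 5 with the lowest p in each genotype contrast, and id1, id3, smad6a, smad6b, smad7, tgfbi, tgfb1a, tgfb2, and tgfb3. The genes and lists were chosen with earlier results of these data known. The 24 alternatives were RLE and upper-quartile scaling, 2 other filters on low counts, DESeq2, the likelihood ratio test, fits of only the groups compared, a replicate block, library set as a term, and each library left out in turn. Replicate numbers were not used as pairs in the main fit, and correlations of same-numbered libraries over all pairs of groups ran from -0.22 to 0.30.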

Additional observations from a re-analysis of the deposited data

Results flagged for a closer look

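In 6 of 62 groups of 4 or 5 libraries tested, 1 library of a named gene lay far from the others of its group, by Dixon's test, which flags about 1 group in 20 by chance. At 1 dpf in WT, replicate 4 was high for grem2b (10.0 CPM, the others from 7.99 to 8.13 CPM) and low for tgfb1b (1.88 CPM, the others from 2.16 to 2.20 CPM). Replicate 5 of the same group was high for bmp3 (11.9 CPM, the others from 10.2 CPM) and low for nog3 (0.920 CPM, the others from 2.23 to 2.44 CPM). Replicate 2 was high for tgfb2 (8.18 CPM, the others from 5.86 to 6.10 CPM). At 2 dpf, fbn3-/- replicate 4 was high for tgfbi (538 CPM, the others from 443 to 468 CPM). Their causes were not tested.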

How the results depend on the processing

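The counts of pathway genes that passed kept within 1.5 times their value between stages under all 24 alternatives. In WT the count of 40 became 36 with only the 2 groups compared and 35 to 43 with single libraries left out, and in fbn3-/- the count of 35 became 37 and 31 to 37. At 1 dpf the count between genotypes was 0 in every alternative. At 2 dpf the count of 1 (tgfbr2a) became 0 with only the 2 groups compared and ran from 0 to 1 with single libraries left out. The FDR of tgfbr2a was under 0.05 in 18 of the 24 alternatives and ran from 2.39e-05 with DESeq2 to 0.108 without WT replicate 3 at 2 dpf. The interaction count of 0 became 1 (grem2b) with DESeq2. No change or difference that passed had its direction reversed under any of the 24 alternatives. Near the threshold, bmp1a and smad6b passed in WT between stages in 8 and 9 alternatives, smad6b was lost in fbn3-/- in 8, and bmp3 was lost in WT in 5. Over all genes, DESeq2 called 68 genes at 1 dpf, 210 at 2 dpf (70.5% of them higher, against 81.8% of the 55 from edgeR's main test), and 37 for the interaction, and the likelihood ratio test called 41, 151, and 29. With single libraries left out, the counts over all genes ran from 1 to 76 at 1 dpf, 13 to 455 at 2 dpf, and 1 to 5 for the interaction. The causes were not tested.

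With a replicate block, the counts were 37 in WT and 33 in fbn3-/- between stages, 0 at 1 dpf, and 0 at 2 dpf, where tgfbr2a had a log2FC of 0.85 (FDR 0.0648). Correlations of same-numbered libraries ran from -0.22 to 0.30. Libraries correlated best with their own number in 4 of 4 cases between genotypes at 1 dpf and 0 of 6 at 2 dpf. Between stages this held in 1 of 4 cases in WT and in 4 of 6 in fbn3-/-, so that pairing is not settled.

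Depth limits the genes of lowest counts, such as inhbab, bmp10, and tgfbr2a, and the 3 to 5 libraries a group limit small differences.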
